A study of Saccharomyces cerevisiae with 18 samples.

Results

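The comparison described here is the loss of TMA20 in yeast grown in YPD, the rich medium. It takes 5 of the 9 lysates of the series, and 10 of its 18 libraries, by growth medium and genotype alone. The lysates of Δtma20 and ΔΔtma20tma64, which lack TMA20, were set against those of WT1, WT2 and Δtma64, which carry it, with the TMA64 deletion as a further term. The values are those of 6713 ORFs among the 7126 gene rows of the count tables.

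The study profiled Saccharomyces cerevisiae strains lacking TMA20, TMA64 or both by ribosome profiling, which sequences the mRNA fragments covered by ribosomes (footprints), and by RNA-seq of the same lysates. All strains were BY4741 (MATa, with his3, leu2, met15 and ura3 deletions). WT1 and WT2 were separate wild-type lysates, Δtma64 carried tma64Δ::KanMX4, Δtma20 carried tma20Δ::KanMX4 and ΔΔtma20tma64 carried tma64Δ::HygMX4 with tma20Δ::KanMX4. All cultures of both media were treated with cycloheximide before harvest, controls included. Each mutant was represented by 1 lysate in YPD, so the replicates of the presence or absence of TMA20 were lysates of different strains, and p-values measure the spread between these lysates. Because every value is a share of its library, a change in the RNA content of a cell and a change in the make-up of the culture cannot be told apart.

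Tma20 is the yeast counterpart of MCT-1 and works as a pair with Tma22, the counterpart of DENR. Tma64, related to eIF2D, is built of similar domains. After a ribosome has terminated and its large subunit has left, these proteins help to release the small subunit from the mRNA, and in animals they also act in reinitiation after short upstream ORFs. Rli1, the yeast ABCE1, splits the subunits in the step before. GCN4, which encodes the activator of amino acid biosynthesis genes, is the classic yeast mRNA whose translation is set by reinitiation after upstream ORFs.

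In YPD, the loss of TMA20 went with more footprints on a small group of mRNAs led by RLI1, PCL5, GCN4, FRE7 and IRC7, and with fewer on a group that held SSA4, ODC1, GPP2, CWP1, HXT1, HSP104, HSP82 and several enzymes of central carbon metabolism. RLI1 footprints were 2.46 times and GCN4 footprints 2.20 times as abundant in the 2 lysates without TMA20 as in the 3 with it, while SSA4 footprints stood at 0.478 and CWP1 footprints at 0.561 of their level. At the mRNA level TMA20 itself was the only ORF that passed the test.

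The 4 upstream ORFs of GCN4 are shown first, because this mRNA is the best known case in yeast of a coding sequence read after upstream ORFs. They are given with their flanks from the RefSeq genome R64, where GCN4 is read from the reverse strand of chromosome V, and capitals mark the upstream ORF from its start to its stop codon.
uORF 1: attgaaaaATGGCTTGCTAAaccgatta
uORF 2: agagaattATGTGTTAAatttattg
uORF 3: ttgctatcATGTACCCGTAGaattttat
uORF 4: tattcaagATGTTTCCGTAAcggttacc
They occupy chrV:140113-140124, chrV:140048-140056, chrV:139928-139939 and chrV:139903-139914, and begin 361, 293, 176 and 151 bases before the GCN4 start codon. The count tables hold reads over coding exons only, so the values below are those of the GCN4 ORF and not of these sites.

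Counts over the ORFs in YPD ran from 5072702 to 8516836 footprints and from 5608491 to 11388027 RNA-seq reads. The labels of TMA20 and TMA64 were checked on the deleted genes. TMA20 gave 1076 footprints in WT1, 964 in WT2 and 858 in Δtma64, against 16 in Δtma20 and 7 in ΔΔtma20tma64, and TMA64 gave 529, 436 and 605 footprints in WT1, WT2 and Δtma20 against 1 in Δtma64 and 4 in ΔΔtma20tma64. LEU2, MET17 (the standard name of MET15) and URA3 had 0 to 2 counts in every YPD library. HIS3, also listed as deleted, had 566 to 1274 footprints and 1043 to 3096 RNA-seq reads in them. The his3 allele of BY4741 removes only part of the gene, so HIS3 counts check no label. WT1 and WT2 correlated across genes at r = 0.992 for footprints and 0.986 for mRNA on the log2 scale, a description over genes, which are not independent replicates.

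TMA20 (YER007C-A) has 2 coding exons on the reverse strand of chromosome V between 166237 and 166885 in R64. Its footprint level was 133 CPM (a count scaled to a common library size with TMM factors) in WT1, 149 in WT2 and 145 in Δtma64, and 1.85 in Δtma20 and 1.31 in ΔΔtma20tma64. In edgeR's quasi-likelihood test the log2 difference was −6.42 (Benjamini-Hochberg adjusted p = 7.99e-10), and in the mRNA it was −7.24 (adjusted p = 0.00416). The genes on either side did not pass: PAC2, a tubulin folding cofactor, stood at 9.12, 11.5 and 9.28 CPM with TMA20 and 9.58 and 12.2 without it, and SEC3, an exocyst subunit, at 58.2, 61.2 and 78.0 against 77.4 and 57.6. TMA22, the partner of TMA20, stood at 167, 214 and 197 CPM with TMA20 and at 221 and 222 without it, a log2 difference of 0.20 (edgeR adjusted p = 0.54). Next to TMA64, APC4, an anaphase-promoting complex subunit, stood at 14.4, 15.8 and 16.9 CPM in WT1, WT2 and Δtma20 and at 3.88 and 2.44 in the 2 lysates without TMA64, and its difference on loss of TMA20 was 0.00 on the log2 scale.

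Of 5259 ORFs tested in the footprints, 42 (0.799%) passed an adjusted p of 0.05 in edgeR's quasi-likelihood test on loss of TMA20, of which 16 (0.304%) were higher and 26 (0.494%) lower, TMA20 among the latter. The median log2 difference over all 5259 ORFs was −0.00. In 892 ORFs (17.0%) both lysates without TMA20 lay above all 3 with it, and in 925 (17.6%) both lay below, and both directions are read against these shares. With 10 splits of 5 lysates, the exact two-sided permutation test gives no p under 0.1, even where the groups do not overlap. A single ORF therefore cannot reach 0.05 by that test. The number called depended on single lysates: 20 ORFs (7 higher, 13 lower) passed without WT2, 65 without WT1, 173 without Δtma20, 229 without ΔΔtma20tma64 and 248 (93 higher, 155 lower) without Δtma64. Without the robust option of the fit 5 were higher and 5 lower, and the other 32 had adjusted p from 0.0508 to 0.0966. DESeq2 gave an adjusted p for 26 of the 42, all under 0.05, and none for the other 16. Besides TMA20, 7 ORFs passed in every alternative fit and omission that gave an adjusted p, namely RLI1, GCN4, PCL5 and IRC7 among the higher and SSA4, CWP1 and YPR127W among the lower, of which RLI1, IRC7 and CWP1 had one in DESeq2. None of the 42 changed sign in any of them.

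**Figure D1:**
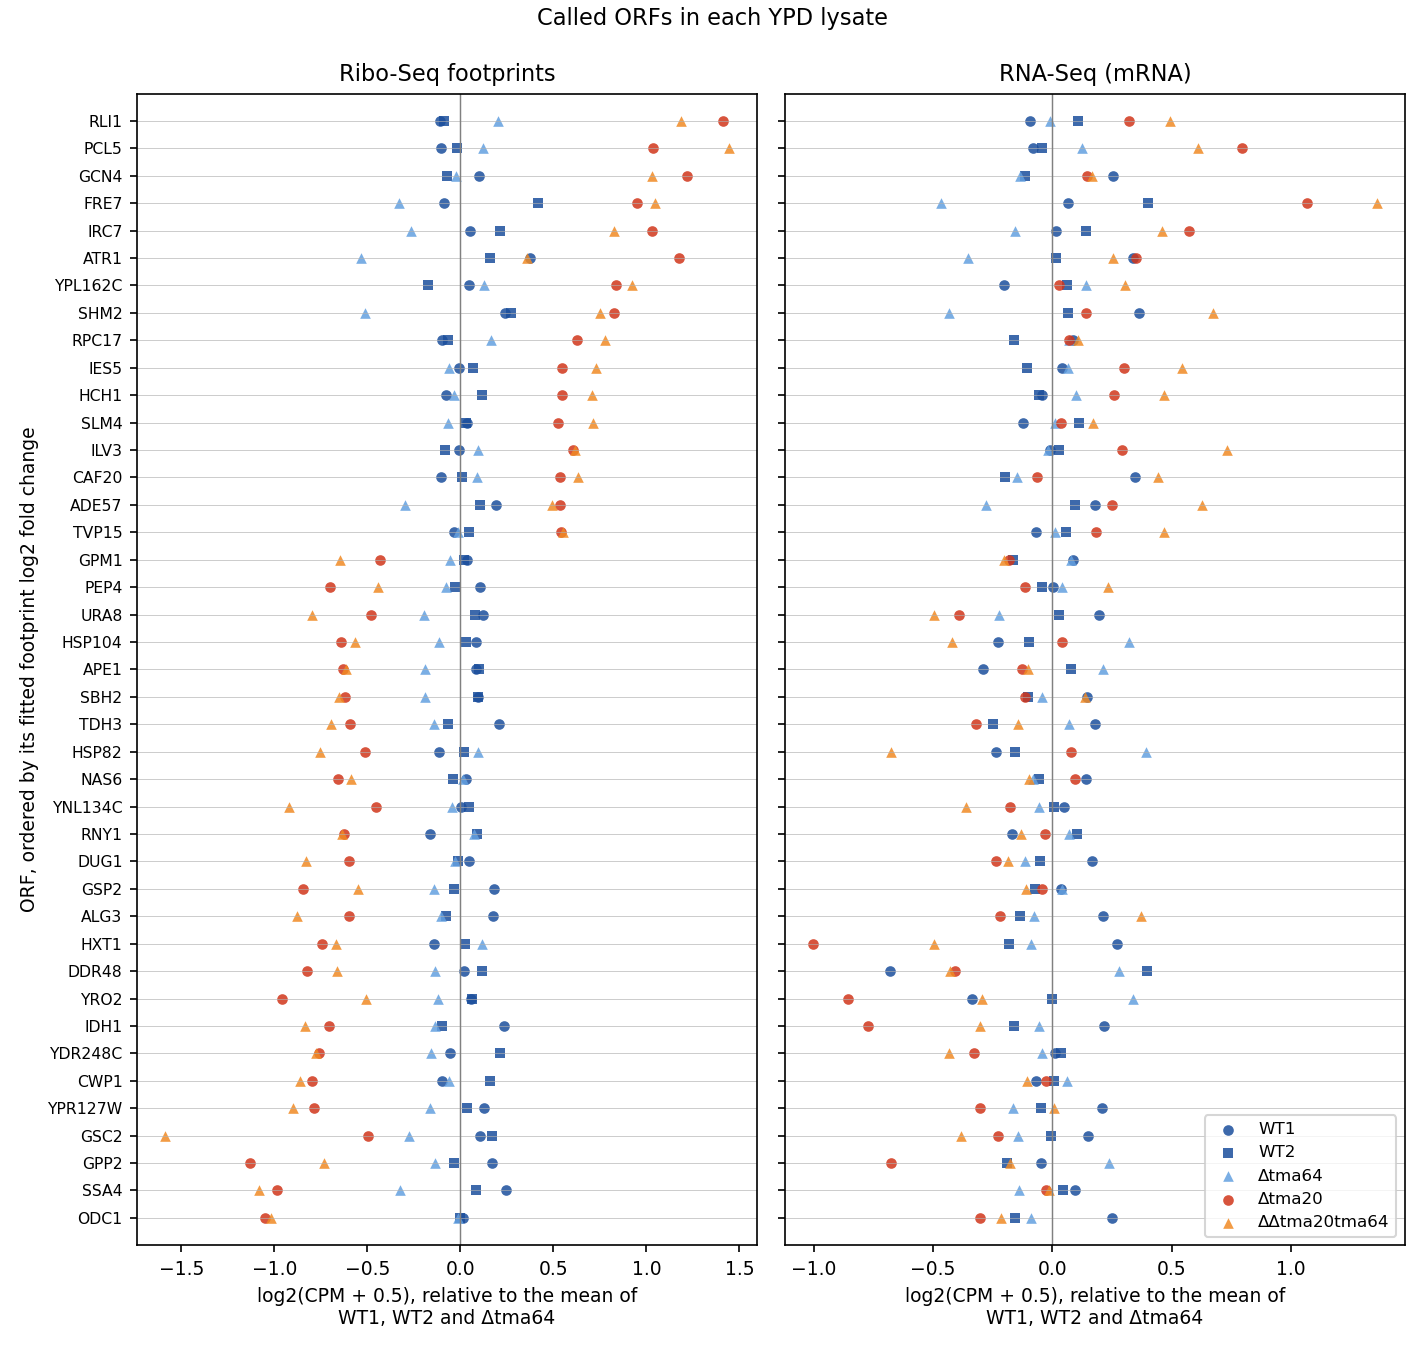
Level of each called ORF other than TMA20 in each YPD lysate, as log2(CPM + 0.5) relative to the mean of WT1, WT2 and Δtma64, for footprints (left) and mRNA (right); each point is 1 lysate and ORFs are ordered by their fitted footprint difference. The ORFs were chosen on these footprints, so their separation there is no independent support. In footprints all 25 lower ORFs and 15 of the 16 higher ones had both lysates without TMA20 wholly on one side, with ATR1 the exception. In mRNA 9 of the higher ones lay above and 9 of the lower ones below, beside 8.30% and 9.49% of all ORFs.

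RLI1 (YDR091C, reverse strand of chromosome IV, 626708 to 628534 in R64) encodes the essential iron-sulfur ATPase that separates ribosomal subunits. Its footprints measured 205 CPM in WT1, 208 in WT2 and 255 in Δtma64, and 591 in Δtma20 and 506 in ΔΔtma20tma64. Both lysates without TMA20 lay far above the others, with means of 548 ± 60.1 CPM (SD, n = 2) and 223 ± 28 (SD, n = 3). The log2 difference was 1.29 ± 0.13 (SE), with an adjusted p of 0.000412 in edgeR's quasi-likelihood test. The RLI1 mRNA was 178, 204 and 189 CPM with TMA20 and 237 and 268 without it, a smaller difference of 0.40 on the log2 scale that did not pass (edgeR adjusted p = 0.999). The ratio of footprint CPM to mRNA CPM, called the translational efficiency, was 1.16, 1.02 and 1.35 with TMA20 and 2.49 and 1.89 without it.

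The other termination and recycling factors moved less than RLI1, the only one of the 9 tested that was higher, with TMA20 the only one lower. HCR1, an initiation factor subunit that also acts with Rli1 in termination and recycling, had 321, 374 and 352 CPM with TMA20 and 493 and 508 without it. Its groups did not overlap, and its log2 difference of 0.52 missed the threshold at an adjusted p of 0.0566. SUP45 and SUP35, the release factors that recognise the stop codon and hydrolyse GTP, had log2 differences of 0.18 and 0.17, and DBP5, a helicase acting in mRNA export and termination, had −0.20, none of them past the test. The median of the 9 was 0.17, beside −0.00 over all ORFs.

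GCN4 (YEL009C, reverse strand of chromosome V, 138918 to 139763 in R64) had 30.6 footprint CPM in WT1, 27.1 in WT2 and 28.02 in Δtma64, and 67.0 in Δtma20 and 58.8 in ΔΔtma20tma64. The 3 lysates with TMA20 lay close together at 28.6 ± 1.79 (SD, n = 3), and both lysates without it lay well above them. The log2 difference was 1.16 ± 0.12 (SE, edgeR adjusted p = 0.000617). GCN4 mRNA was abundant and did not pass the test, at 2026, 1568 and 1545 CPM with TMA20 and 1878 and 1907 without it, and these ranges overlap. The ratio of footprint CPM to mRNA CPM was 0.0151, 0.0173 and 0.0181 with TMA20 and 0.0357 and 0.0308 without it.

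PCL5 (YHR071W, forward strand of chromosome VIII, 237004 to 237693), a cyclin whose kinase marks Gcn4 for degradation and a target of Gcn4, measured 8.75, 9.29 and 10.3 footprint CPM with TMA20 and 19.9 and 26.5 without it. The log2 difference was 1.23 ± 0.17 (SE, edgeR adjusted p = 0.00718). Its mRNA stood higher as well, at 82.1, 84.4 and 94.6 CPM against 151 and 133, without passing after adjustment (adjusted p = 0.943). GCN2, the kinase upstream of GCN4, had a log2 difference of 0.05, and among the 5 genes listed for the GCN4 pathway GCN4 alone was called. Among 18 genes with known upstream ORFs GCN4 was again the only one called, and their median was 0.08.

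Few of the biosynthesis genes that Gcn4 activates passed the test. Of 53 amino acid biosynthesis ORFs outside the arginine and sulfur pathways, 1 was higher and none lower in the footprints, with a median of 0.06, 35 positive and 15 above without overlap (28.3%, beside 17.0% of all ORFs). Their lysate medians were −0.02 in WT1, WT2 and Δtma64, 0.12 in Δtma20 and −0.01 in ΔΔtma20tma64, and the median difference was −0.01 without Δtma20. In the mRNA none was called, 47 were positive and the median was 0.10, and it was −0.02 without Δtma64. The higher one was ILV3, an enzyme of isoleucine and valine synthesis, with 793, 753 and 853 CPM with TMA20 and 1214 and 1225 without it (log2 difference 0.60, edgeR adjusted p = 0.025, but 0.15 without WT2 and 0.0512 without Δtma20). HIS4, a histidine biosynthesis enzyme and a standard Gcn4 target, had a difference of 0.07. Of 10 arginine genes none was called, 8 were positive and 4 lay above without overlap (40%, beside 17.0% of all ORFs). Their median of 0.35 became 0.04 without Δtma20. ARG1, argininosuccinate synthetase, shows this, with 46.8, 53.3 and 45.6 CPM with TMA20, 77.9 in Δtma20 and 54.1 in ΔΔtma20tma64.

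The Gcn4 binding sequence TGACTCA was searched on both strands in the 400 bases before the start codon of each ORF and was found before 186 of 5237 ORFs tested (3.55%), 2 of the 16 higher ones and 1 of the 25 lower ones. The matches before ILV3 and ATR1 are shown as the ones among the higher ORFs, and that before GSP2, TGAGTCA being the same letters on the other strand, as the one among the lower, from the RefSeq genome R64 with the match in capitals and 5′ to 3′ along the strand of the gene.
ATR1: attttctcTGACTCAaacctgtt
ILV3: tctccagaTGACTCAgtaatata
GSP2: ggtcttaaTGAGTCAcgggaggt
The matches lie at chrXIII:37912-37918, chrX:466337-466343 and chrXV:682462-682468. The PCL5 window held no match in these letters. A match is a description of the sequence and not a measured site.

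IRC7 (YFR055W, forward strand of chromosome VI, 264204 to 265226), a cysteine beta-lyase gene, had 114, 128 and 91.7 footprint CPM with TMA20 and 225 and 195 without it. The groups did not overlap, the log2 difference was 0.98 ± 0.12 (SE, edgeR adjusted p = 0.00253), and the mRNA differed by 0.55 without passing. FRE7, a copper-regulated ferric reductase gene, had 45.1, 64.3 and 38.0 footprint CPM with TMA20 and 93.2 and 99.5 without it (1.02, adjusted p = 0.0402). Its mRNA differed as much, at 93.4, 118 and 64.4 CPM against 188 and 230, a log2 difference of 1.27. ATR1, a drug efflux pump gene, was called at 0.91 (adjusted p = 0.00897), but its value of 27.4 CPM in ΔΔtma20tma64 was below the 27.7 of WT1, so its groups overlap, and the adjusted p was 0.343 without the TMA64 term.

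The remaining higher ORFs moved by 0.55 to 0.88 on the log2 scale. SHM2 and ADE5,7, enzymes of one-carbon and purine synthesis, and CAF20, a repressor that binds the cap-binding protein eIF4E, were among them, as was HCH1, a regulator of the chaperone Hsp90. SHM2 had 3808, 3898 and 2261 CPM in WT1, WT2 and Δtma64 and 5711 and 5429 without TMA20, and CAF20 had 296, 320 and 339 against 461 and 493. The SHM2 difference of 0.87 was lost when the TMA64 term was left out (edgeR adjusted p = 0.208), Δtma64 being the lowest lysate. CAF20 and HCH1 lost the call without WT2 (adjusted p = 0.151 and 0.11), CAF20 also without WT1 (0.0536), and ADE5,7 without WT2 (0.172), without Δtma64 (0.111), without ΔΔtma20tma64 (0.111) and without the TMA64 term (0.0792). Of 31 purine and one-carbon ORFs 2 were higher and none lower, beside 0.304% and 0.494% of all ORFs, with a median of 0.22 and 25 positive. Their mRNA median was 0.27, with WT1 and ΔΔtma20tma64 at 0.20 and 0.26 and the other 3 lysates between −0.34 and −0.02. Of 28 initiation factor ORFs CAF20 alone was called, and TIF4631, which encodes the scaffold eIF4G, had 438, 479 and 536 CPM against 697 and 578 without passing. YPL162C, RPC17, IES5, SLM4 and TVP15 complete the higher ORFs, and each lost the call without WT2, at adjusted p from 0.118 for RPC17 to 0.234 for TVP15. YPL162C and RPC17 also lost it without Δtma20, and TVP15 without WT1 (edgeR adjusted p = 0.0733).

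**Figure D2:**
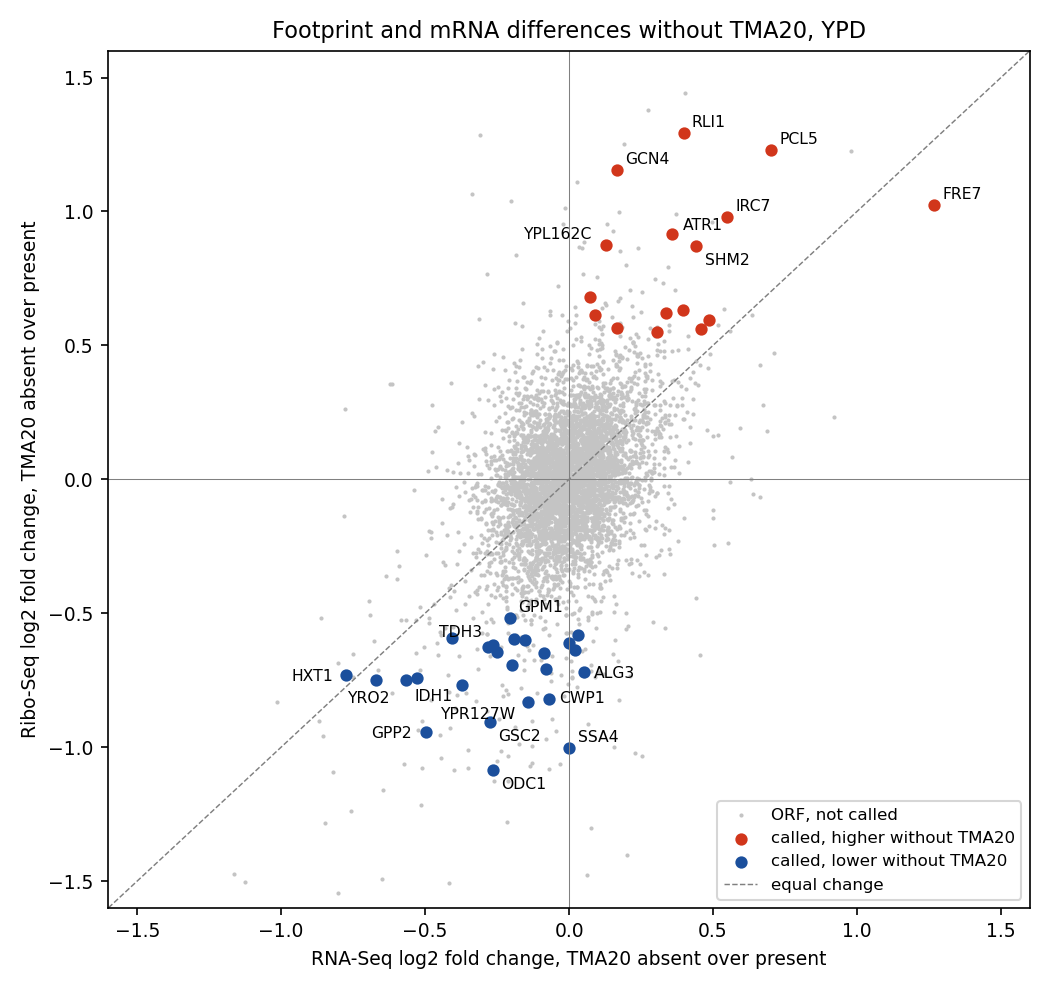
Log2 difference in footprints (vertical axis) against that in mRNA (horizontal axis) on loss of TMA20 in YPD, each point 1 of the 5246 ORFs of 5255 in both tests that fall within the axes; called ORFs are red where higher and blue where lower, and the dashed line marks equal differences. RLI1, GCN4, SSA4 and CWP1 lie far from 0 on the footprint axis and nearer to it on the mRNA axis, whereas FRE7 lies close to the dashed line.

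Among the lower ORFs SSA4, the stress-induced Hsp70 (YER103W, forward strand of chromosome V, 364589 to 366517), had 101, 89.99 and 67.7 footprint CPM in WT1, WT2 and Δtma64, and 42.6 and 39.8 in Δtma20 and ΔΔtma20tma64. The means were 86.1 ± 16.8 (SD, n = 3) and 41.2 ± 1.98 (SD, n = 2), and the log2 difference was −1.002 ± 0.14 (SE, edgeR adjusted p = 0.00565). Its mRNA measured 144, 139 and 122 CPM with TMA20 and 132 and 134 without it, a difference of 0.00. The footprint to mRNA ratio thus lay at 0.698, 0.647 and 0.554 with TMA20 and at 0.322 and 0.298 without it, with no overlap.

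Of 37 chaperone ORFs 3 were lower and none higher, with a median of −0.12. In 18 (48.6%, beside 17.6% of all ORFs) both lysates without TMA20 lay below the others. HSP104, the disaggregase, had 1320, 1271 and 1146 CPM with TMA20 and 796 and 838 without it (−0.59, edgeR adjusted p = 0.0308). HSP82, the inducible Hsp90, had 1061, 1168 and 1228 against 807 and 682 (−0.63, adjusted p = 0.0318), with 81.8% of its 28-base windows unique in the genome, so that some of its reads could be lost to its near-identical copy HSC82. SSA1, the major cytosolic Hsp70, had 3428, 2757 and 2719 against 1626 and 2144 without passing (adjusted p = 0.0773). Without WT2 the call was lost for HSP104 (0.15) and HSP82 (0.146), and without Δtma20 for HSP104 (0.117). The heat shock element, searched on both strands of the 400-base windows as alternating GAA and TTC units with 2 free bases between neighbours and 3 units in all, occurred before 68 of 5237 ORFs (1.30%), and before HSP104 only among the 25 lower ones. A further match before HSP104 overlaps the one shown, at chrXII:88321-88333, and starts in the lower-case flank. The match in capitals, from the RefSeq genome, lies at chrXII:88326-88338.
HSP104: tttttccaGAATTTTCTAGAAgggttatt

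The 31 general stress ORFs tested had a median of −0.34, and none was called. In footprints 29 were negative and 11 lay below without overlap (35.5%, beside 17.6% of all ORFs), and the lysate medians overlapped between the groups, with deviations of 0.37 in WT1, 0.21 in WT2, −0.08 in Δtma64, −0.43 in Δtma20 and −0.03 in ΔΔtma20tma64. Without Δtma20 their median turned to 0.08, and without ΔΔtma20tma64 it was −0.74. Their mRNA median was 0.04. In translational efficiency all 33 members tested were negative and 18 lay below without overlap (54.5%, beside 11.6% of all ORFs), none of them past the test, with a median of −0.46 that ran from −0.70 without Δtma64 to −0.11 without Δtma20. HSP26, a small heat shock protein gene, ranged from 324 CPM in WT1 through 159 and 115 in WT2 and Δtma64 to 49.99 and 69.3 without TMA20, with a log2 difference of −1.605 and an adjusted p of 0.503. YRO2, a plasma membrane protein gene of the HSP30 family, was called at −0.75, and lost the call without WT2 (0.154), without Δtma20 (0.236) and with all 9 lysates in the fit (0.146).

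CWP1 (YKL096W, forward strand of chromosome XI, 261132 to 261851), which encodes a major mannoprotein of the cell wall, had 670, 799 and 687 footprint CPM with TMA20 and 412 and 394 without it. The means were 719 ± 70.4 (SD, n = 3) and 403 ± 12.5 (SD, n = 2). The log2 difference was −0.82 ± 0.12 (SE, edgeR adjusted p = 0.00755), while the mRNA was 276, 292 and 303 CPM against 285 and 270. Of 29 cell wall protein ORFs CWP1 alone was called, with a median of −0.25, 28 negative and 15 lower without overlap (51.7%, beside 17.6% of all ORFs). GSC2, a glucan synthase subunit outside that count, had 226, 236 and 173 CPM with TMA20, 148 in Δtma20 and 69.5 in ΔΔtma20tma64 (−0.91, adjusted p = 0.0218), and lost the call when the TMA64 term was left out (0.329).

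Central carbon metabolism held 22 of 23 glycolysis and fermentation ORFs with a negative footprint difference. Of the 23, 2 were lower and none higher, 19 had both lysates without TMA20 below the rest (82.6%, beside 17.6% of all ORFs), and the median was −0.33. TDH3, the main glyceraldehyde-3-phosphate dehydrogenase, had 28509, 23571 and 22349 CPM with TMA20 and 16348 and 15253 without it (−0.62, edgeR adjusted p = 0.0275). Only 52.8% of its 28-base windows were unique, so its level is uncertain against that of its copies. GPM1, phosphoglycerate mutase, had 13145, 13018 and 12360 against 9509 and 8193 (−0.52, adjusted p = 0.0355). Enolase ENO2 at 22807, 20343 and 19925 against 16703 and 16344, and pyruvate decarboxylase PDC1 at 31390, 28051 and 29291 against 24365 and 23377, also lay lower in both lysates without TMA20, without passing. The TDH3 call was lost without Δtma20 (0.122), and that of GPM1 without WT2 (0.154), Δtma20 (0.0657), Δtma64 (0.0948) or ΔΔtma20tma64 (0.105).

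The mRNA of the same 23 ORFs did not separate the groups. Its median difference was −0.04, with lysate medians of 0.10, −0.11 and 0.08 with TMA20 and −0.09 and 0.02 without it. In the footprints the lysate medians were 0.25, 0.10 and 0.06 against −0.17 and −0.27, which do not overlap. Translational efficiency was lower for all 23 in fitted value, with a median of −0.32, and none passed the test. Of the 23, 12 lay below without overlap (52.2%, beside 11.6% of all ORFs). The footprint median stayed between −0.36 and −0.28 in all alternatives and omissions.

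Of 27 ORFs of the tricarboxylic acid cycle and neighbouring steps 1 was lower, the median was −0.21 and 24 were negative. In 17 of the 27 both lysates without TMA20 lay below the others, beside 17.6% of all ORFs. IDH1, a subunit of isocitrate dehydrogenase, had 482, 382 and 372 CPM with TMA20 and 250 and 228 without it (−0.75, edgeR adjusted p = 0.0218). Its partner IDH2 had 700, 524 and 536 against 328 and 388 and missed the threshold (−0.71, adjusted p = 0.0566). The mRNA of IDH1 lay lower too, at 363, 280 and 301 CPM against 183 and 253. HXT1, a low-affinity glucose transporter, was the only one called of 12 hexose transporter ORFs, with 141, 158 and 168 CPM against 92.5 and 97.6 (−0.73, adjusted p = 0.0215) and mRNA at 164, 120 and 128 against 67.6 and 96.1. Its call was lost without WT2 (0.128), and 89.4% of its windows were unique.

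GPP2, glycerol-3-phosphatase, had 332, 288 and 268 CPM with TMA20 and 134 and 177 without it (−0.94, edgeR adjusted p = 0.0205). ODC1, a mitochondrial oxodicarboxylate carrier, had 15.5, 15.3 and 15.2 against 7.16 and 7.32 (−1.08, adjusted p = 0.0275), and its call was lost without WT2 (0.118). YPR127W (forward strand of chromosome XVI, 790083 to 791120), a pyridoxal reductase-like gene, had 48.4, 45.4 and 39.5 against 25.4 and 23.5 (−0.83, adjusted p = 0.0142). Among proteases and their helpers, DUG1, a dipeptidase of glutathione breakdown, had 608, 584 and 578 CPM against 390 and 331 (−0.69), and the vacuolar protease PEP4 had 913, 833 and 806 against 522 and 624 (−0.58). NAS6, a proteasome assembly chaperone, stood at 79.1, 75.4 and 78.2 against 49.0 and 51.4 (−0.64), and APE1, a vacuolar aminopeptidase, at −0.60. SBH2, a subunit of the second translocon, had 207, 208 and 170 against 126 and 124 (−0.61). Without WT2 the calls of DUG1 (0.0645), PEP4 (0.178), NAS6 (0.128), APE1 (0.243) and SBH2 (0.235) were lost, and without Δtma20 those of PEP4 (0.225), APE1 (0.148) and SBH2 (0.119), and those of PEP4 and APE1 also without WT1 (0.06 and 0.0534). YDR248C, DDR48, ALG3, GSP2, YNL134C, RNY1 and URA8 complete the lower ORFs, at −0.77 to −0.59, and in DDR48 only 50.6% of windows were unique. All 7 lost the call without WT2, at adjusted p from 0.106 for ALG3 to 0.257 for RNY1. YDR248C, DDR48 and GSP2 also lost it without Δtma20, and ALG3 and GSP2 without WT1 (edgeR adjusted p = 0.063 and 0.0574).

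Ribosomal proteins and ribosome biogenesis factors had no called member. The 137 cytosolic ribosomal protein ORFs had a median of 0.08 in footprints, with 97 positive and 58 above without overlap (42.3%, beside 17.0% of all ORFs), and 0.16 in mRNA, with 124 positive and 40 above without overlap (29.2%, beside 8.30%). In mRNA their lysate medians overlapped, at 0.07, −0.15 and −0.12 with TMA20 and 0.02 and 0.17 without it. The mRNA median ran from 0.06 without Δtma64 to 0.29 without Δtma20. Their translational efficiency had a median of −0.05, with 90 negative. The 97 biogenesis ORFs had a footprint median of 0.09 that turned to −0.16 without Δtma20 and reached 0.29 without Δtma64. Mitochondrial ribosomal proteins had a median of −0.09. Of the 44 gene lists examined, 28 had no called member in the footprints, 42 none in the mRNA and 44 none in translational efficiency.

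**Figure D3:**
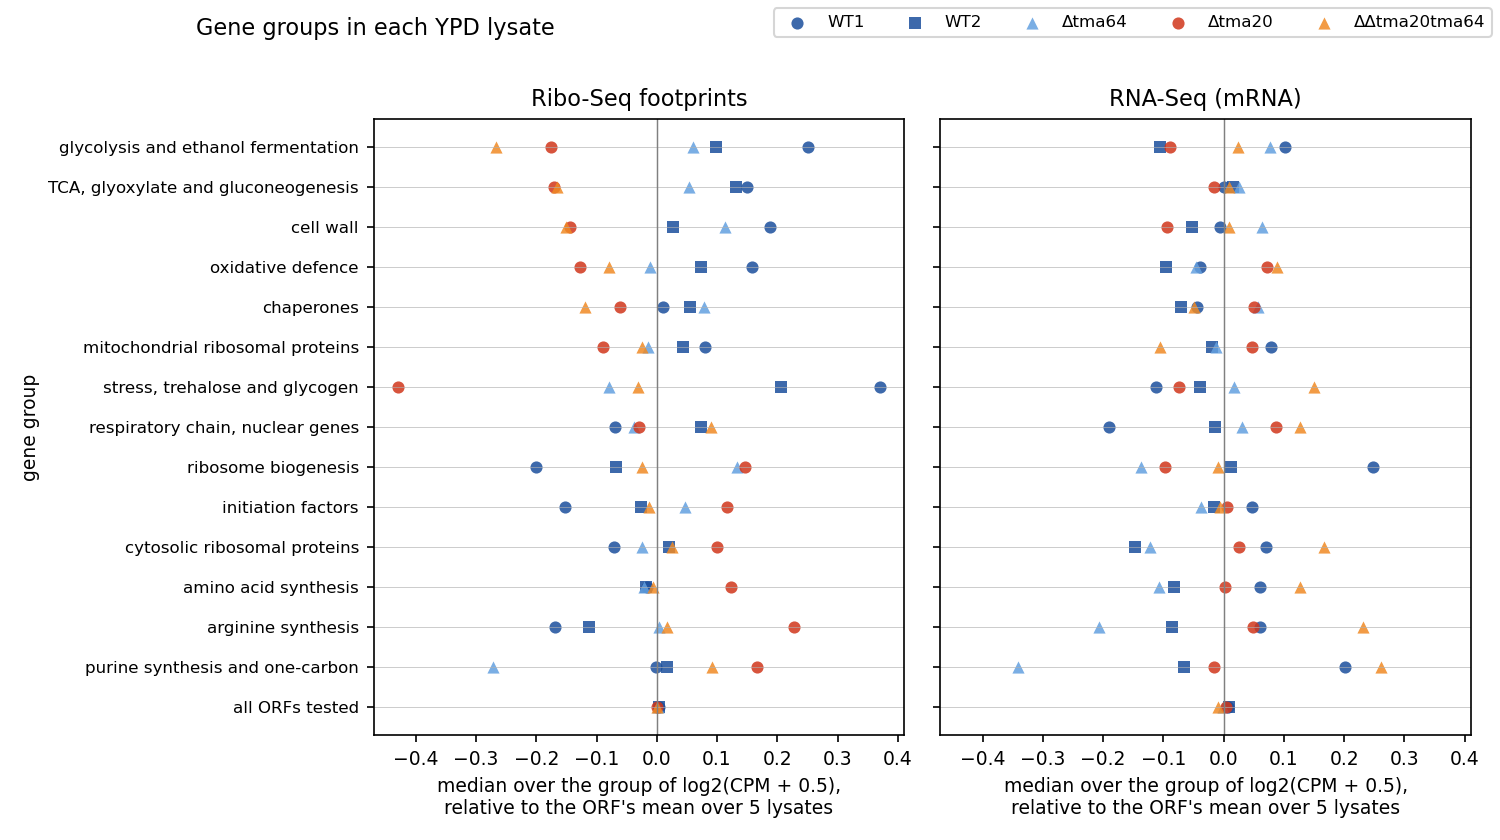
Median over each gene list of log2(CPM + 0.5) relative to the mean of each ORF over the 5 YPD lysates, for footprints (left) and mRNA (right); each point is 1 lysate. Footprints of glycolysis, tricarboxylic acid cycle and cell wall ORFs lay lower in both lysates without TMA20 than in the other 3. So did those of oxidative defence, chaperones and mitochondrial ribosomal proteins. Cytosolic ribosomal proteins and amino acid, arginine and purine synthesis lay higher in both, so separation was common among the lists. The median over all ORFs also lay lower, at 0.0041, 0.0029 and 0.0028 with TMA20 and 0.00097 and −0.00018 without it. Footprints of the stress list did not separate.

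In the mRNA 5797 ORFs were tested, and 0 were higher and 1 (0.0173%) lower in edgeR's quasi-likelihood test, the lower one being TMA20. At an unadjusted p under 0.05 there were 148, and DESeq2 called 3 higher and 1 lower. The counts rested on single lysates, with 0 to 16 higher and 1 to 11 lower when 1 lysate was left out. In 481 ORFs (8.30%) both lysates without TMA20 lay above the rest, and in 550 (9.49%) below. The translational efficiency, tested as the interaction of assay and TMA20 over both kinds of library, gave 0 higher and 0 lower of 5798 ORFs in edgeR, with 204 at an unadjusted p under 0.05 and 1 higher and 1 lower in DESeq2. These fits had no term for the lysate and so did not pair the assays. With the lysate as a replicate block 0 ORFs passed in edgeR. In the unpaired edgeR fit SSA4 had the lowest adjusted p, 0.882. Translational efficiency lay above the rest in both lysates without TMA20 in 600 ORFs (10.4%) and below in 672 (11.6%).

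The called ORFs other than TMA20 were compared between assays as a description, since they were chosen on the footprints. All 16 higher ones had a positive mRNA difference, with medians of 0.78 in footprints and 0.38 in mRNA, and 20 of the 25 lower ones had a negative one, with medians of −0.71 and −0.21. Translational efficiency includes the same footprints, so an excess of low p among these ORFs is no independent support. In edgeR without pairing by lysate, its unadjusted p was under 0.05 in 8 of the 16 and 14 of the 25, beside 204 of all 5798 ORFs. Among the 8 and 14, the log2 difference in translational efficiency was −0.995 for SSA4, 0.99 for GCN4, 0.90 for RLI1, −0.75 for CWP1 and −0.68 for YPR127W, and 0.53 for PCL5 and 0.44 for IRC7, whose mRNA differed more. HOL1, a polyamine transporter gene with an upstream ORF, was not called. Its footprints lay lower without TMA20, unlike those of GCN4, at 37.2, 42.9 and 35.5 CPM against 28.6 and 17.5 (−0.68, edgeR adjusted p = 0.0638). Its mRNA difference was 0.17.

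The footprint difference changed little with sequence features of the ORF. Grouped by coding length, the median log2 difference ran from −0.06 to 0.06 over 8 classes, and grouped by stop codon from −0.01 to 0.01. Grouped by the last sense codon, which is held by the ribosome at termination, it ran from −0.06 for GTC (33 ORFs) to 0.11 for GTG (35 ORFs) over 53 codons. The spread by length differed between the contrasts that make up the comparison. From the shortest to the longest class the log2 ratio of ΔΔtma20tma64 to Δtma64 fell from 0.15 to −0.19 in footprints and from 0.16 to −0.21 in mRNA, and that of Δtma20 to the wild types went from −0.06 to 0.02 and from 0.06 to 0.01. Length therefore moved with the contrast on the tma64Δ background in both assays, and its part in the differences of single genes was not tested.

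The comparison can be read on each TMA64 background, Δtma20 against WT1 and WT2, and ΔΔtma20tma64 against Δtma64. Whether the loss of TMA20 acted differently on them was tested as an interaction. Its only replicate difference is that between WT1 and WT2. The fit moderates the spread of each ORF with that shared over all ORFs, so its p-values also rest on other genes. Of 5321 footprint ORFs 74 (1.39%) passed in edgeR's quasi-likelihood test, 47 (0.883%) were more positive and 27 (0.507%) more negative on the tma64Δ background. With all 9 lysates in the fit 8 and 0 passed, and in DESeq2 4 and 0, so that no more negative ORF passed in either. RLI1 had an interaction of −0.53 and did not pass (adjusted p = 0.244), nor did SSA4 at 0.40 (0.543), GCN4 at −0.14 (0.89), PCL5 at 0.22 (0.881), IRC7 at 0.19 (0.806), CWP1 at 0.03 (0.970) or YPR127W at 0.13 (0.904).

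HSP12, a membrane-stabilising stress protein gene, had 323 and 243 CPM in WT1 and WT2, 105 in Δtma20, 197 in Δtma64 and 211 in ΔΔtma20tma64. The ratio was thus 0.371 on the wild-type background and 1.07 on the other (interaction 1.53, edgeR adjusted p = 1.05e-05). SPI1, a weak acid stress gene, stood at 36.5 and 28.3 in the wild types, 20.7 in Δtma20, 18.2 in Δtma64 and 37.2 in ΔΔtma20tma64 (1.68, adjusted p = 9.29e-05). In both genes WT1 lay above WT2, and ΔΔtma20tma64 stood above both single mutants. HAC1, which encodes the activator of the unfolded protein response and whose mRNA is held untranslated until it is spliced, had 20.3, 18.4, 17.6 and 16.5 CPM in WT1, WT2, Δtma64 and Δtma20 and 4.69 in ΔΔtma20tma64 (−1.67, adjusted p = 0.0102). Its mRNA was 1032, 1092, 1134, 1052 and 1170 CPM in the same order, so ΔΔtma20tma64 was low in footprints alone.

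**Figure D4:**
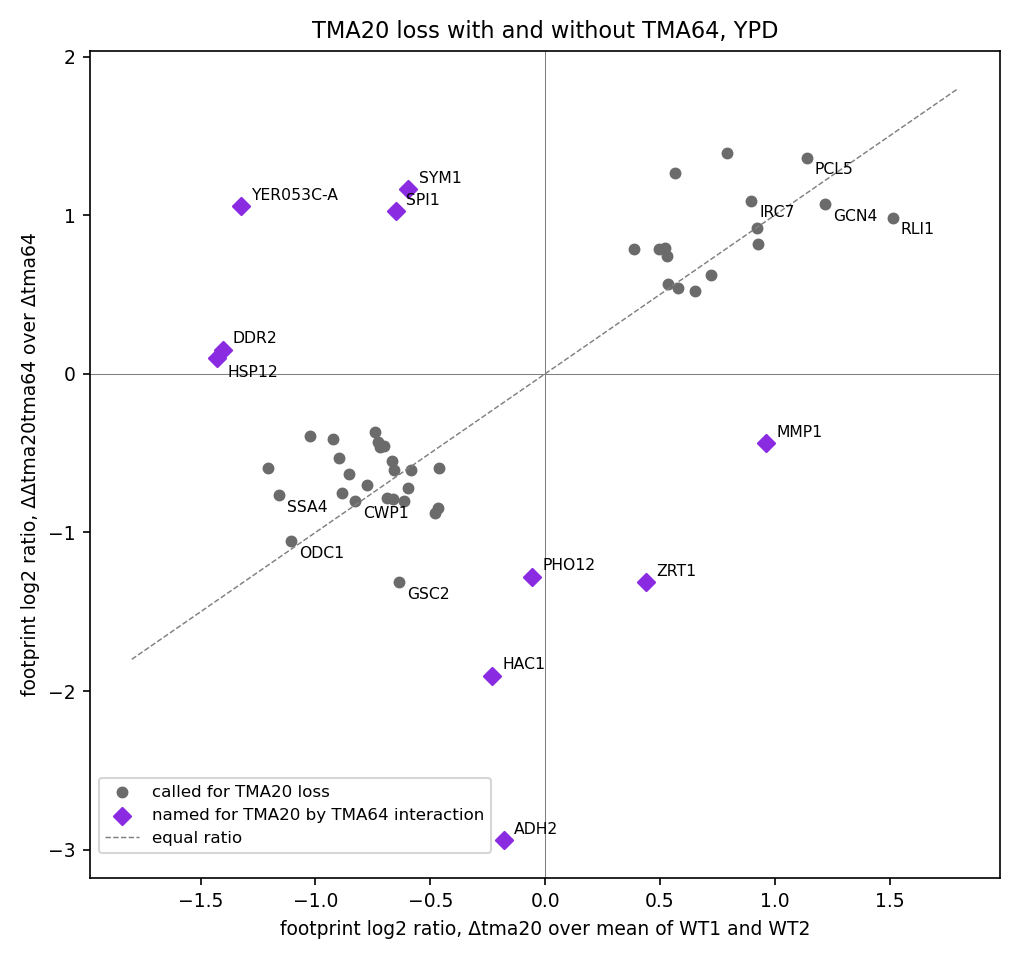
Footprint log2 ratio on loss of TMA20 on each TMA64 background, Δtma20 over the wild types on the horizontal axis and ΔΔtma20tma64 over Δtma64 on the vertical axis; circles are the called ORFs, diamonds those named for the interaction, and the dashed line marks equal ratios. RLI1, GCN4 and PCL5 lie high and SSA4, CWP1 and ODC1 low on both axes, while HSP12 is low on the horizontal axis only and HAC1 far lower on the vertical axis.

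In the mRNA 25 ORFs (0.426%) of 5873 passed, 12 (0.204%) of them more positive and 13 (0.221%) more negative on the tma64Δ background, TMA20 itself among the former with 0 counts in Δtma20 and 16 in ΔΔtma20tma64. With all 9 lysates none passed (DESeq2 with the 5 YPD lysates, 1 and 0). HAP4, a regulator of respiratory genes, had 16.9 CPM in WT1, 35.2 in WT2, 62.3 in Δtma64, 61.8 in Δtma20 and 34.4 in ΔΔtma20tma64. AAH1, adenine deaminase, had 220, 127, 76.8, 57.1 and 88.6 in the same order. In both, WT1, WT2 and ΔΔtma20tma64 lay on one side of the single mutants, with WT2 between WT1 and the single mutants. For AAH1 ΔΔtma20tma64, at 88.6, was nearer to Δtma64 at 76.8 than to either wild type.

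The same genotypes were grown once each in SD, a synthetic medium, and the footprint difference was set against that in YPD by an interaction over all 9 lysates, with 1668588 to 23532664 footprints over the ORFs in SD. Of 5369 ORFs 2 (0.0373%) were more positive and 4 (0.0745%) more negative in SD in edgeR's quasi-likelihood test. GCN4, scaled over the 9 lysates, had 31.5, 28.1 and 28.8 CPM with TMA20 and 69.1 and 60.8 without it in YPD, and in SD 99.1 and 72.8 in wild type and Δtma64 and 104 and 72.3 in Δtma20 and ΔΔtma20tma64. The ratio was 2.20 in YPD and 1.03 in SD (interaction −1.16, adjusted p = 0.0234), and 7 of 13 alternative fits kept that call, which was lost without WT2 in YPD (0.0645), Δtma20 in YPD (0.143), ΔΔtma20tma64 in YPD (0.169) or wild type (0.17), Δtma64 (0.0913) or ΔΔtma20tma64 (0.724) in SD. CWP1 had 628 and 637 CPM with TMA20 in SD and 740 and 846 without it, a ratio of 1.25 beside 0.561 in YPD (1.16, adjusted p = 0.0116, lost in 5 of the 9 omissions of a lysate at up to 0.327, without ΔΔtma20tma64 in SD). ARG1 had 451 and 447 CPM with TMA20 in SD and 335 and 217 without it, a ratio of 0.614 beside 1.36 (−1.24, adjusted p = 0.0234, lost in 4 of the 9 at up to 0.724).

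RLI1 had 189 and 241 CPM with TMA20 in SD and 425 and 538 without it, a ratio of 2.24 beside 2.46 in YPD, and the interaction was −0.12 (edgeR adjusted p = 0.998). IRC7 was at 17.1 and 12.7 CPM with TMA20 in SD and at 5.26 and 10.8 without it, a ratio of 0.540 beside 1.89 that missed the threshold (adjusted p = 0.0682). SSA4 had a ratio of 0.852 in SD beside 0.479 (adjusted p = 0.356). Of the 41 called ORFs other than TMA20, 35 had a ratio on the same side of 1 in both media, and 2, GCN4 and CWP1, differed between media after adjustment over all ORFs. PHO84 and ENB1, transporters of phosphate and of an iron siderophore, and YHR033W, at 4.45 CPM or less in YPD, make up the rest of the 6. With a term for TMA64 by medium the calls of ARG1, PHO84 and ENB1 were lost, each at an adjusted p of 0.0532. The mRNA interaction called 0 higher and 0 lower of 5966 in edgeR, with 130 at an unadjusted p under 0.05 and 0 higher and 2 lower in DESeq2.

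**Figure D5:**
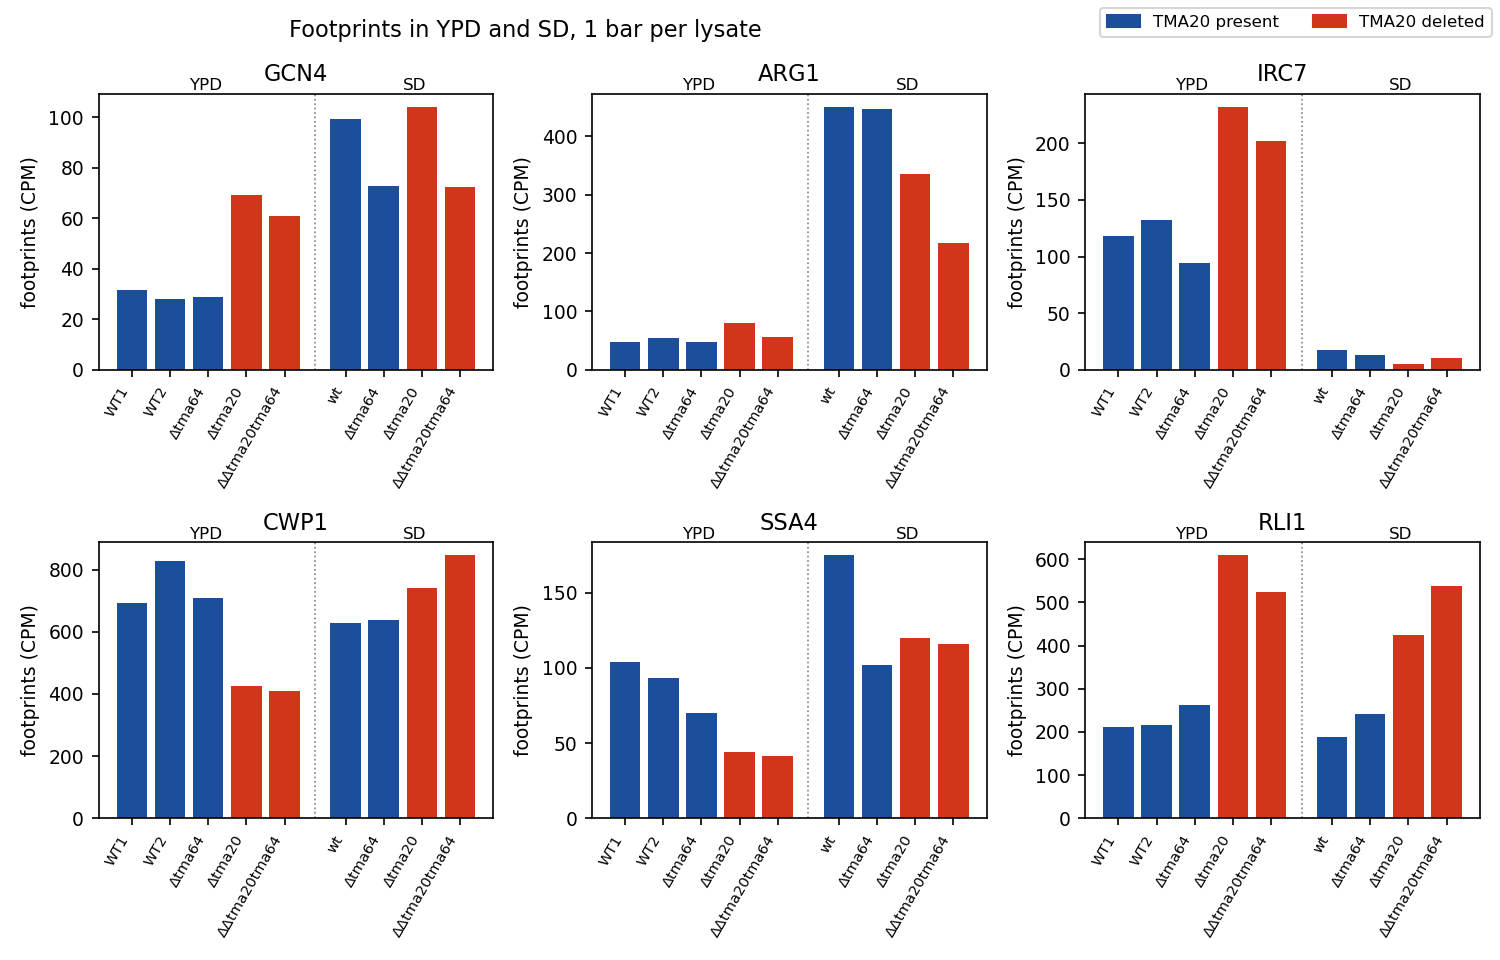
Footprint CPM of 6 ORFs, 1 bar per lysate on a linear axis from 0, with the 5 YPD lysates on the left and the 4 SD lysates on the right of each panel; blue bars carry TMA20 and red bars lack it. GCN4 differed with TMA20 in YPD and overlapped in SD, CWP1 was lower without TMA20 in YPD but not in SD, and RLI1 was higher without TMA20 in both media.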

How the data were processed

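Ribosome profiling and RNA-seq libraries came from portions of the same lysates. Per the submitters' notes and the study's methods, the authors trimmed reads with cutadapt 1.18, mapped them with STAR 2.5.3a to R64-1-1 and deposited raw read counts per gene from uniquely mapped reads. Reads on the sense strand were used. Reads in no gene made 0.805 to 1.09% of footprint and 18.8 to 23.6% of RNA libraries and were left out. ORF names, positions and sequences are from RefSeq. ORFs passing filterByExpr (minimum count 10) were fitted in edgeR 4.0.16 (R 4.3.3) with TMM and a robust quasi-likelihood fit, with terms for TMA20 and TMA64, adjusted over all ORFs tested at a threshold of 0.05. DESeq2 1.42.0 was an alternative, and the code was tested on simulated data. CPM and SD are per lysate, and SE is from the fit. The assays pair by lysate: residuals of the 2 assays correlated at 0.154 in WT1, 0.198 in WT2 and 0.0725 in the mutants, whose residuals the model ties together. The ORFs named by rule were TMA20, TMA64, TMA22, GCN4, APC4 and HMRA1, the neighbours of the deleted genes, the termination and recycling factors, up to 12 called rises and 12 called falls without overlap in footprints (8 and 8 for mRNA and translational efficiency), up to 5 in each direction for interactions and up to 4 called members of a list. The other called ORFs and the uncalled list members were named after their values were seen. HMRA1, at 31.4, 44.8 and 37.6 CPM with TMA20 and 30.5 and 25.2 without it, did not pass. Per the paper the sequenced reference strain is MATα, unlike these MATa strains. Whether the reads of the HMRA1 row came from that locus or from the MAT locus was not tested. The comparison and the gene lists were chosen with earlier results of these data known.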

Additional observations from a re-analysis of the deposited data

Results flagged for a closer look

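These ORFs passed a test of the interaction itself, the difference between groups in the response to the loss of TMA20, in edgeR's quasi-likelihood fit, and most lost the call in other fits. A positive value means a more positive response on the tma64Δ background or in SD. For footprints across TMA64 backgrounds the log2 differences were 2.37 for YER053C-A, 1.75 for SYM1, 1.68 for SPI1, 1.57 for DDR2 and 1.53 for HSP12 on one side. On the other they were −2.78 for ADH2, −1.75 for ZRT1, −1.67 for HAC1, −1.41 for MMP1 and −1.22 for PHO12. None of the 5 negative ones passed in DESeq2 or with all 9 lysates in the fit, and of the 5 positive ones HSP12 passed in DESeq2 alone and SPI1 with all 9 lysates alone. ADH2 stood at 8.75, 16.1, 18.7 and 11 CPM in WT1, WT2, Δtma64 and Δtma20 and at 2.44 in ΔΔtma20tma64, with 80.5% of its windows unique. Of the windows of PHO12 7.77% were unique, so most of its reads could be lost to its copies and its level is uncertain.

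For the mRNA across TMA64 backgrounds the values were 2.76 for PAU17, 1.81 for AAH1, 1.57 for DBP2 and 1.55 for PHO89, and −2.16 for CIP1, −2.13 for HAP4, −1.91 for RGI1, −1.82 for FMP48 and −1.63 for BTN2. CIP1 had 23.9 CPM in WT1, 45.9 in WT2, 95.2 in Δtma64, 68.5 in Δtma20 and 42.5 in ΔΔtma20tma64. None of these passed in DESeq2 or with all 9 lysates. In both sets Δtma64, Δtma20 and ΔΔtma20tma64 are single lysates. The fit has 1 residual degree of freedom, the difference between WT1 and WT2, and otherwise draws on the spread shared over all ORFs.

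Between media the interaction in footprints was 1.16 for CWP1, −1.62 for PHO84, −1.24 for ARG1, −1.20 for ENB1 and −1.16 for GCN4. PHO84 and ENB1 showed ratios of 1.02 and 0.982 in YPD and of 0.416 and 0.499 in SD. The PHO84 call was lost in 4 of the 9 omissions of a lysate and that of ENB1 in 6 of the 9, and without ΔΔtma20tma64 in SD the values were −0.84 and −0.79. With a term for TMA64 by medium CWP1 and GCN4 kept the call, and ARG1, PHO84 and ENB1 did not.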

How the results depend on the processing

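No called ORF named here changed sign in any alternative fit of its own comparison. Medians of lists did: 22 of 43 changed sign in footprints, 28 of 44 in mRNA and 31 of 44 in translational efficiency in at least 1 alternative or omission. For footprints, the ORFs higher and lower on loss of TMA20 numbered 55 and 58 without a filter on low counts, 30 and 46 in DESeq2, 5 and 5 without the robust fit, 35 and 49 without the TMA64 term and 31 and 30 with all 9 lysates, beside 16 and 26, and 7 to 94 and 13 to 155 with 1 lysate left out. For the mRNA DESeq2 gave 3 higher and 1 lower, and omissions 0 to 16 and 1 to 11. For translational efficiency DESeq2 gave 1 and 1, omissions 0 to 3 and 0 to 3, and the fit with the lysate as a replicate block, which pairs the assays, 0 and 0. The interaction with TMA64 gave, beside 47 and 27 in footprints, 4 and 0 in DESeq2 and 8 and 0 with all 9 lysates, and in the mRNA, beside 12 and 13, 1 and 0 in DESeq2 and 0 and 0 with all 9 lysates. It allowed no omission, since no residual degree of freedom would remain. The interaction with medium gave 7 and 9 in DESeq2 for footprints, 3 and 6 without a filter and 2 and 1 with a term for TMA64 by medium, beside 2 and 4, and omissions gave 0 to 27 and 0 to 19. For the mRNA it gave 0 and 2 in DESeq2 and 0 to 1 in each direction with omissions. The causes were not tested. With 1 lysate per mutant the number of lysates limits the precision.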
